A study of Mus musculus with 17 samples.

Results

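Forkhead factors FoxA1 and FoxC1 were compared head to head after 24 h of forced expression in mouse embryonic stem (ES) cells, with 3 libraries of the line iFoxA1 against 2 of the line iFoxC1, 5 of the 17 RNA-seq libraries in the series. Both lines come from MC1 ES cells of the 129S6/SvEvTac background. Each carries, at the Rosa26 locus, one construct with the open reading frame of a single factor tagged at its C-terminus with His6-FLAG, plus a puromycin resistance gene, and doxycycline (Dox) keeps the factor repressed. The starting state, 0 h, was ES medium with 15% serum, 1000 U/ml of the self-renewal cytokine LIF, 0.2 µg/ml Dox and 1 µg/ml puromycin. Cells sampled at 24 h had been washed 3 times with PBS, 3 h apart, and grown without Dox in a differentiation medium with 10% serum, so both lines lost Dox and ES medium together. At 0 h there were 2 iFoxA1 libraries and 1 iFoxC1 library, and 3 further lines (iFoxG1, iFoxL2 and iFoxP3, 2 libraries each at 24 h) served as points of reference. Every line carries a transgene, and the labels leave out whether a line is a single clone.

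FoxA1 is a forkhead factor of the early endoderm and its derivatives, and is known as a pioneer factor that binds its sites in closed chromatin. FoxC1 acts in paraxial mesoderm, the periocular mesenchyme and neural crest derivatives, the endothelium and the heart. Forkhead proteins share a winged-helix DNA-binding domain and recognise closely related sequences, and both lines went through the same medium change.

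The transgene-encoded genes separated the lines as labelled. On GRCm38, Foxa1 (ENSMUSG00000035451.7) lies on the minus strand at chr12:57540628-57546916 and Foxc1 (ENSMUSG00000050295.4) on the plus strand at chr13:31806633-31812476. Foxa1 stood at 236, 252 and 76.7 CPM (read counts scaled to the library's TMM-adjusted total) in the 3 iFoxA1 libraries at 24 h, against 0.248 and 0.0885 CPM in iFoxC1, a log2 difference of 10.22 ± 0.86 (SE; edgeR adjusted p = 0.000329). Foxc1 stood at 274 and 289 CPM in iFoxC1 and at 0.744, 0.752 and 0.148 CPM in iFoxA1 (log2 difference -9.10 ± 0.59, edgeR adjusted p = 0.000129). The groups did not overlap for either gene, and the third iFoxA1 library had the least Foxa1 of its line. Per transcript length, Foxa1 had 131, 137 and 21.8 TPM (a level scaled by transcript length and depth) in iFoxA1. Foxc1 had 73.7 and 48.1 TPM in iFoxC1, lower in the second library, where its CPM was higher. CPM and TPM thus ranked the iFoxC1 libraries differently. Before Dox removal, Foxa1 was at 1.87 and 3.05 CPM in iFoxA1 and Foxc1 at 1.94 CPM in iFoxC1. Reads of a transgene and of the cell's own copy cannot be told apart in these gene-level values.

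**Figure D1:**
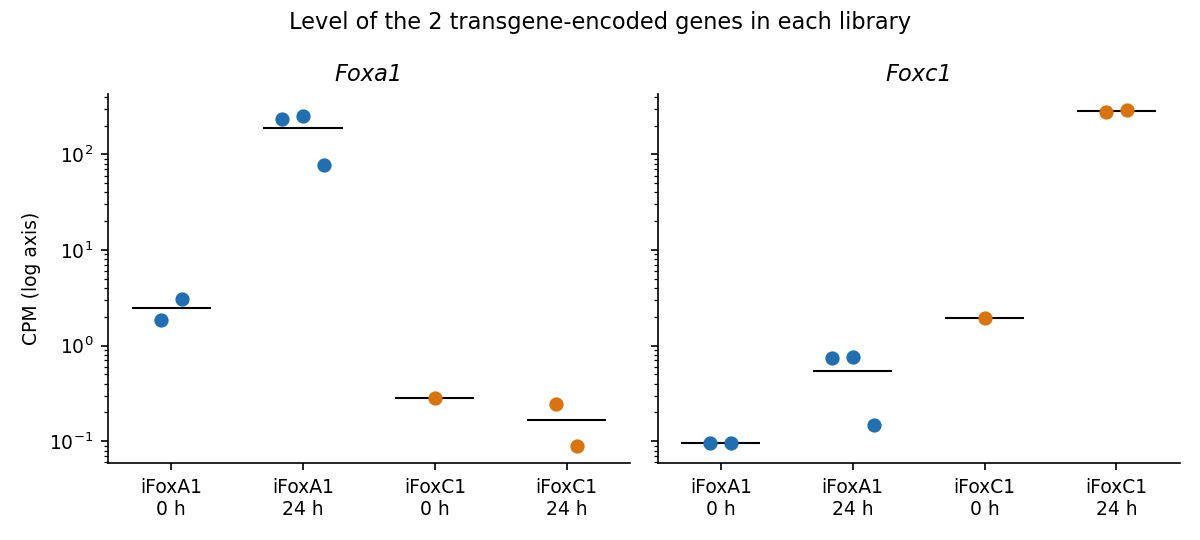
Foxa1 (left) and Foxc1 (right) in CPM on a log axis, 1 point per library of iFoxA1 (blue) and iFoxC1 (orange) at 0 h and 24 h, with a line at the group mean. Each gene was high only in its own line at 24 h, and 1 of the 3 iFoxA1 libraries had 76.7 CPM of Foxa1 against 236 and 252 CPM in the others.

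The 5 libraries held 17.7 to 37.2 M counts (M, mega), with 16098 to 16914 genes at 10 counts or more. They fell into 2 sets by depth. iFoxA1 replicate 3 and iFoxC1 replicate 2 had 37.2 and 34.1 M counts, and the others at most 20.3 M. The deep libraries also held far more of the small RNA gene Mir6236, at 46549 and 31756 TPM against 973 to 1633 TPM in the other libraries. iFoxA1 replicate 3 stood apart from its group: the mean log2 CPM of 16 naive pluripotency genes was 6.85 there, 5.11 and 5.10 in replicates 1 and 2, and 5.72 and 5.74 in iFoxC1, and that of 24 glycolysis genes was 8.99 against 7.30 and 7.21, and 7.33 and 7.32 in iFoxC1. The ES cell markers were present throughout. Pou5f1 had 711, 720 and 1236 CPM in iFoxA1 and 881 and 977 CPM in iFoxC1, and Sox2 had 196, 202 and 281 against 239 and 148 CPM.

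Of 19819 genes tested, 1765 (8.91%) differed between the lines at 24 h at a Benjamini-Hochberg adjusted p under 0.05, here termed called. The split was nearly even, with 889 higher in iFoxA1 (4.49%) and 876 higher in iFoxC1 (4.42%). The iFoxA1 side held the larger differences: 294 of its genes differed by more than 4-fold, against 168 on the iFoxC1 side, and 291 against 400 differed by less than 2-fold. The called genes did not overlap between the lines' libraries, but neither did 40.9% of all genes tested (19.3% with iFoxA1 above and 21.6% with iFoxC1 above). The median log2 difference over all genes was 0.01. Against the mean of the 3 reference lines, 468 of the 876 were called lower in iFoxA1 and 228 higher in iFoxC1. Of the 889, 638 were called higher in iFoxA1 and 136 lower in iFoxC1. Over all genes these comparisons called 8.53% higher and 6.03% lower in iFoxA1, and 2.59% higher and 1.51% lower in iFoxC1. They reuse the same iFoxA1 and iFoxC1 libraries. Replicates are not stated to be separate cultures, and a p-value therefore reflects only how far these libraries scatter. The count depended on which libraries entered the fit: it was 276 and 379 without iFoxC1 replicate 2 or 1, 752 and 859 without iFoxA1 replicate 1 or 2, and 2509 without iFoxA1 replicate 3. It was also 1031 and 1029 without either iFoxA1 library at 0 h, which bear only on the shared spread. With library set as a term it was 3413.

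Among the genes that most favoured iFoxA1, Calca, which encodes calcitonin and the neuropeptide CGRP, was at 231, 236 and 66.2 CPM in iFoxA1 against 1.59 and 2.03 CPM in iFoxC1 (log2 difference 6.60 ± 0.78, edgeR adjusted p = 0.00181). Emp2, an epithelial membrane protein of the tetraspan type, was at 170, 172 and 92.0 CPM against 2.43 and 2.30 CPM (5.93 ± 0.54, edgeR adjusted p = 0.000526). Both were low at 0 h in both lines, with 5.93 and 7.12 against 6.30 CPM for Calca and 7.27 and 7.45 against 4.31 CPM for Emp2, and neither was called then. Tacr1, the receptor for substance P, was at 7.49, 7.68 and 5.85 CPM against 0.149 and 0.118 CPM. Lpar3, a receptor for lysophosphatidic acid, was at 4.91, 4.51 and 6.15 CPM against 0.0496 and 0.118 CPM. Cldn10, a claudin of tight junctions, was at 4.71, 4.03 and 6.95 CPM against 0.0496 and 0.118 CPM. All 3 genes were near 0 in iFoxC1, and for Lpar3 and Cldn10 the third iFoxA1 library was the highest, unlike for Foxa1. Dkk3, a secreted member of the Dickkopf family, was at 42.0, 42.2 and 16.3 CPM against 0.744 and 1.06 CPM. Timp4, an inhibitor of matrix metalloproteinases, was at 13.0, 12.0 and 4.97 CPM against 0.446 and 0.177 CPM. For both, every iFoxA1 library was above every iFoxC1 library, and the third iFoxA1 library was the lowest of its line.

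Per2, a repressor of the circadian clock, had 53.8, 54.5 and 75.0 CPM in iFoxA1 and 1.14 and 1.39 CPM in iFoxC1 (log2 difference 5.58 ± 0.33, edgeR adjusted p = 0.000129). At 0 h it had 0.478 and 0.484 CPM in iFoxA1 and 0 counts in iFoxC1, and it rose with time in both lines. Hkdc1, a hexokinase-like protein, had 12.5, 13.9 and 6.95 CPM against 0.149 and 0.206 CPM, and was already higher in iFoxA1 at 0 h (4.93 and 5.42 against 0.332 CPM, edgeR adjusted p = 0.0264). Rbm24, an RNA-binding regulator of splicing, had 459 counts in all in iFoxA1 and 3 in iFoxC1, a ratio of 114 with a 95% exact counting interval of 38.8 to 555. Tekt5, a tektin of cilia and flagella, had 942 counts against 2, a ratio of 351 (96.9 to 2901). These intervals cover counting error only. Grk3, a kinase that desensitises G-protein-coupled receptors, had 53.9, 53.4 and 24.1 CPM against 1.44 and 1.09 CPM. Grk3 is taken up again below, since it fell with time in iFoxC1. Bmp2 and Shh complete the 15 genes and are described with their pathways.

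The genes that most favoured iFoxC1 had smaller differences. After Foxc1 itself, the largest was Psors1c2, at 22.1 and 41.7 CPM in iFoxC1 and 1.69, 1.29 and 2.42 CPM in iFoxA1 (log2 difference -4.13 ± 0.68, edgeR adjusted p = 0.00717). Gcm1, a transcription factor of the placental labyrinth, was at 5.70 and 8.55 CPM against 0.397, 0.322 and 0.473 CPM (-4.13 ± 0.64, edgeR adjusted p = 0.0056). In the 3 reference lines Gcm1 averaged 2.55, 5.87 and 5.42 CPM, and iFoxA1 lay below all of them. iFoxA1 differed from the mean of these lines by -3.41 ± 0.57 log2 (edgeR adjusted p = 0.00406), and iFoxC1 by 0.72 (edgeR adjusted p = 0.569). The reverse held for Pdx1, a transcription factor of the pancreas and duodenum, at 4.96 and 5.96 CPM in iFoxC1 against 0.347, 0.537 and 0.0887 CPM in iFoxA1. Pdx1 averaged 0.0687 to 0.311 CPM in the reference lines, and iFoxC1 exceeded them by 5.03 log2 (edgeR adjusted p = 0.00371). Pdx1 is an endoderm gene by textbook assignment and was higher in the line of the other factor.

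Sfn, which encodes 14-3-3 sigma, was the most abundant of these genes beside Foxc1, at 97.2 and 121 CPM in iFoxC1 and 9.13, 9.83 and 13.4 CPM in iFoxA1 (log2 difference -3.33 ± 0.40, edgeR adjusted p = 0.00201). It had been at 20.2 CPM in iFoxC1 and at 28.3 and 26.9 CPM in iFoxA1 at 0 h, and the difference between the lines' changes was called (edgeR adjusted p = 0.0289). Scml2, a Polycomb group protein of the germ line, was at 20.9 CPM in both iFoxC1 libraries and at 2.68, 2.90 and 3.07 CPM in iFoxA1. Its difference predated Dox removal, with 25.3 CPM in iFoxC1 and 4.40 and 3.97 CPM in iFoxA1 at 0 h (edgeR adjusted p = 0.00268). Serpina3m, a serine protease inhibitor, likewise differed at 0 h, with 52.4 against 8.18 and 7.65 CPM. By 24 h Serpina3m had fallen in both lines, to 15.1 and 16.0 CPM in iFoxC1 and 2.38, 1.61 and 1.12 CPM in iFoxA1. Aox3, an aldehyde oxidase, fell from 7.89 and 7.26 CPM to 0.942, 1.61 and 2.22 CPM in iFoxA1, and was at 11.1 CPM before and 15.1 and 15.8 CPM after in iFoxC1. Pramel7, a PRAME-family gene of the inner cell mass, was at 10.2 and 10.4 CPM in iFoxC1 against 2.03, 1.40 and 0.828 CPM in iFoxA1. Pramel7 has near-identical copies that share reads, so its value may belong in part to a copy. The remaining genes were Pmp22, the adaptor gene Spsb4, the sphingosine kinase gene Sphk1, the ligand genes Bmp8b and Wnt7b, and Gata3, with 6.69 (Gata3) to 12.3 (Pmp22) CPM in the iFoxC1 libraries and 0.207 (Spsb4) to 1.98 (Wnt7b) CPM in the iFoxA1 libraries.

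**Figure D2:**
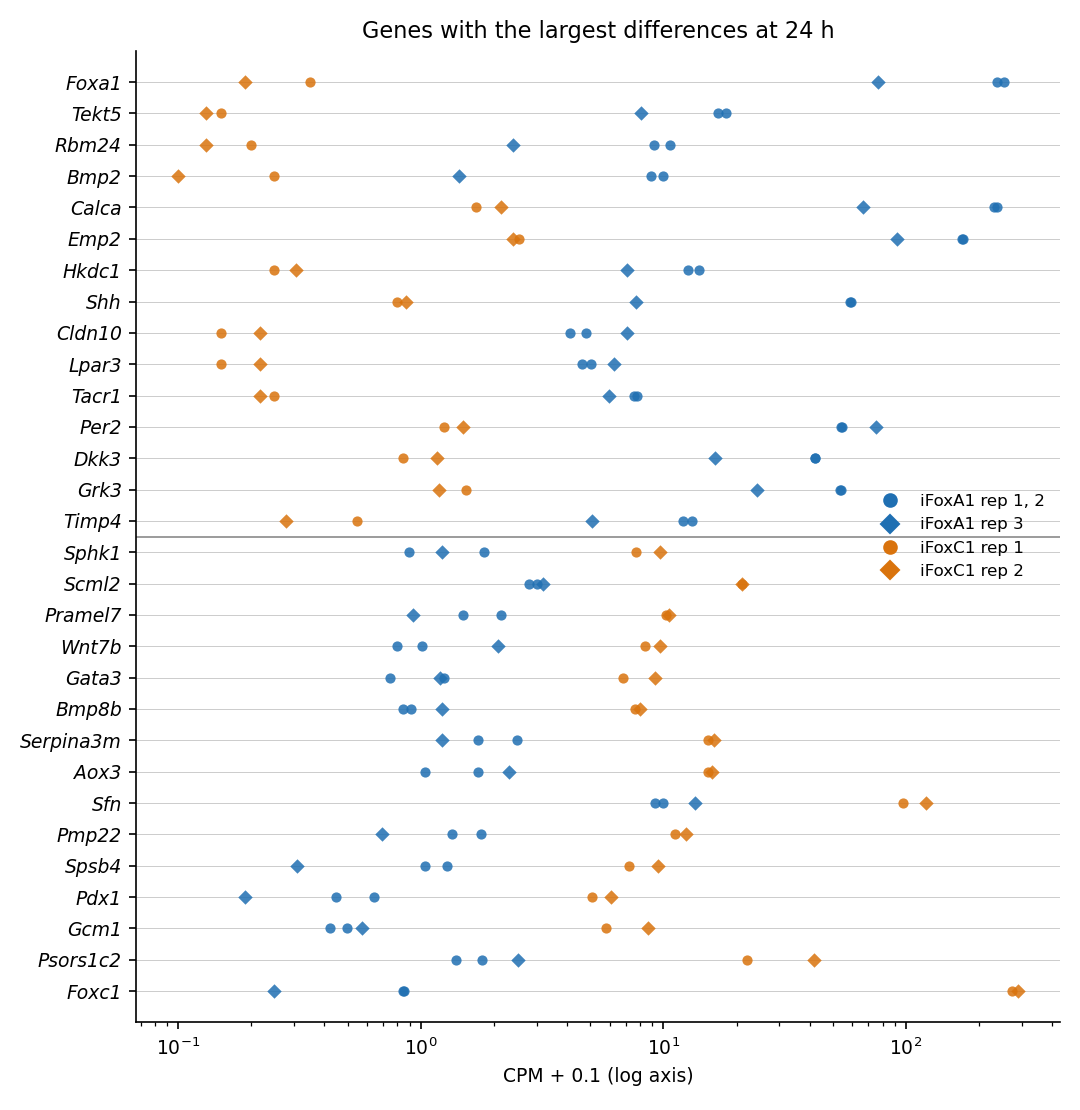
CPM + 0.1 (log axis) of the 15 genes with the largest differences in each direction, 1 symbol per library, with iFoxA1 in blue, iFoxC1 in orange and diamonds for the deep libraries. The colours do not overlap in any row, and the blue diamond of iFoxA1 replicate 3 lies closest to iFoxC1 for Foxa1, Shh, Bmp2, Calca and Rbm24 but not for Per2, Cldn10 and Lpar3.

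Gene lists were read next, and their counts of called members also moved with the libraries. Of 30 lists with a called gene, 25 had fewer calls by over 1.5 times without iFoxC1 replicate 2 (15 of them none), 23 without iFoxC1 replicate 1, and 17 and 18 without iFoxA1 replicate 1 or 2, while 16 had more without iFoxA1 replicate 3. Over all genes, 4.49% were called higher in iFoxA1 and 4.42% in iFoxC1. Endoderm genes were in lists of different origin. Primitive and visceral endoderm are the extraembryonic layers next to the epiblast, and definitive endoderm is the later embryonic layer that forms the gut. Of 19 primitive and visceral endoderm genes tested, 10 were higher in iFoxA1 and 0 in iFoxC1, with a median log2 difference of 2.63 beside 0.01 over all genes. The count stayed between 7 and 16 in the alternative analyses. In bulk RNA, fewer cells of a type and less RNA per cell cannot be told apart. Of 16 definitive and foregut genes, 6 were higher in iFoxA1 (among them Gata6, Gata4, Sox17, Shh and Foxa2) and 1, Pdx1, in iFoxC1, with a median of 1.66, and Gata4, Gata6 and Sox17 belong to both lists. In the gut and hepatocyte list, Krt18 and Vil1, a keratin and the brush-border protein villin, were higher in iFoxA1, 2 of 11 tested. Without iFoxC1 replicate 2 the counts for these lists were 7, 2 and 0.

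The transcription factors of the lists were present at low to moderate level in iFoxA1. Gata6, which drives primitive endoderm, was at 25.1, 23.8 and 15.5 CPM in iFoxA1 and 5.01 and 4.66 CPM in iFoxC1 (log2 difference 2.15 ± 0.26, edgeR adjusted p = 0.00208). Gata4 was at 10.4, 9.99 and 8.81 CPM against 0.248 and 0.678 CPM (4.33 ± 0.57, edgeR adjusted p = 0.00273). Sox17 was at 4.26, 4.30 and 1.98 CPM against 0.347 and 0.118 CPM (3.95 ± 0.69, edgeR adjusted p = 0.00899). None of these 3 factors overlapped between the lines. Foxa2, the sister of the induced factor, had 203 counts in iFoxA1 and 2 in iFoxC1, a ratio of 75.6 (95% counting interval 20.7 to 629). Foxa3 was not called, at 0.347, 0.322 and 0.443 CPM against 0.892 and 0.678 CPM (edgeR adjusted p = 0.272). Lhx1, which is also in the primitive streak list, had 2875 counts in iFoxA1 and 94 in iFoxC1 at 24 h, again without a call. At 0 h it had 0 counts in both lines. Cxcr4 and Cer1, used as markers of definitive and anterior endoderm, were not called: Cxcr4 was at 1.69, 1.45 and 4.40 CPM against 1.39 and 1.89 CPM, and Cer1 at 3.92, 4.19 and 0.355 CPM against 0.892 and 0.590 CPM.

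Further members of the primitive and visceral endoderm list encode matrix, receptor and transport proteins. The laminin chain Lama1 was at 98.0, 97.0 and 74.5 CPM in iFoxA1 and 3.52 and 3.30 CPM in iFoxC1 (log2 difference 4.72 ± 0.33, edgeR adjusted p = 0.000147). The collagen IV chains Col4a1 and Col4a2 were at 379 to 457 and 140 to 160 CPM in iFoxA1 against 50.1 and 72.6, and 20.7 and 27.0 CPM in iFoxC1. Laminin and collagen IV are the sheet-forming proteins of basement membranes, which parietal endoderm secretes in bulk. Cubn, the endocytic receptor cubilin, was at 106, 100 and 36.5 CPM against 2.53 and 2.98 CPM, and its partner genes Amn (edgeR adjusted p = 0.431) and Lrp2 (edgeR adjusted p = 0.757) were not called. The receptor gene Pdgfra and the proteoglycan gene Srgn were also higher in iFoxA1. Apob, which encodes apolipoprotein B, was at 46.4, 44.0 and 2.13 CPM against 0.942 and 1.06 CPM, with iFoxA1 replicate 3 far below the other two. Defining products of mature visceral endoderm and liver were close to 0: Afp had at most 10 and Alb at most 1 count in any library.

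All but Apob of the 10 called primitive and visceral endoderm genes already differed before Dox removal. At 0 h, where 1.54% of all genes were called and 0.999% were higher in iFoxA1, 9 of the 19 primitive and visceral endoderm genes were higher in iFoxA1 and the list's median log2 difference was 3.48. Cubn was at 56.8 and 56.3 CPM in iFoxA1 and 0.142 CPM in iFoxC1 at that time, Pdgfra at 23.4 and 25.0 against 0.806 CPM, and Gata4 at 12.9 and 13.1 against 0.853 CPM. Between the lines, the change from 0 h to 24 h differed for 1 gene of the list, Lama1, where 2.9% of all genes were called. Lama1 dropped from 206 and 211 CPM in iFoxA1 and from 53.6 CPM in iFoxC1, further in iFoxC1. The list's median difference between the changes was -0.92, toward iFoxC1. Apob, in contrast, was only at 0.431 and 0.629 CPM in iFoxA1 at 0 h and rose with time there (edgeR adjusted p = 0.0185). In iFoxC1 Apob had 55 counts at 24 h and 3 at 0 h, a ratio of 7.15 (95% counting interval 2.32 to 35.7), without a call (edgeR adjusted p = 0.38). In the definitive and foregut list, 3 of 16 genes (Gata4, Gata6 and Sox17) were already higher in iFoxA1 at 0 h. That list's median was 1.54 at 0 h, and its median difference between the changes was 0.09. The 0 h comparison rests on 1 iFoxC1 library, which was assumed to vary like the other groups. That library stood apart from the 0 h libraries of all other lines in some lists. Its mean log2 CPM of 24 glycolysis genes was 8.37, against 7.16 to 7.44 in the others. Its summed level of formative and primed epiblast genes was 370 CPM, against 682 to 726 CPM. For primitive and visceral endoderm genes its summed level was 346 CPM, within the 301 to 357 CPM of iFoxG1, iFoxL2 and iFoxP3. In iFoxA1 that level was 1137 and 1130 CPM. Foxa1 itself was higher in iFoxA1 at 0 h without a call (edgeR adjusted p = 0.17). Its part in the other 0 h differences was not tested.

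**Figure D3:**
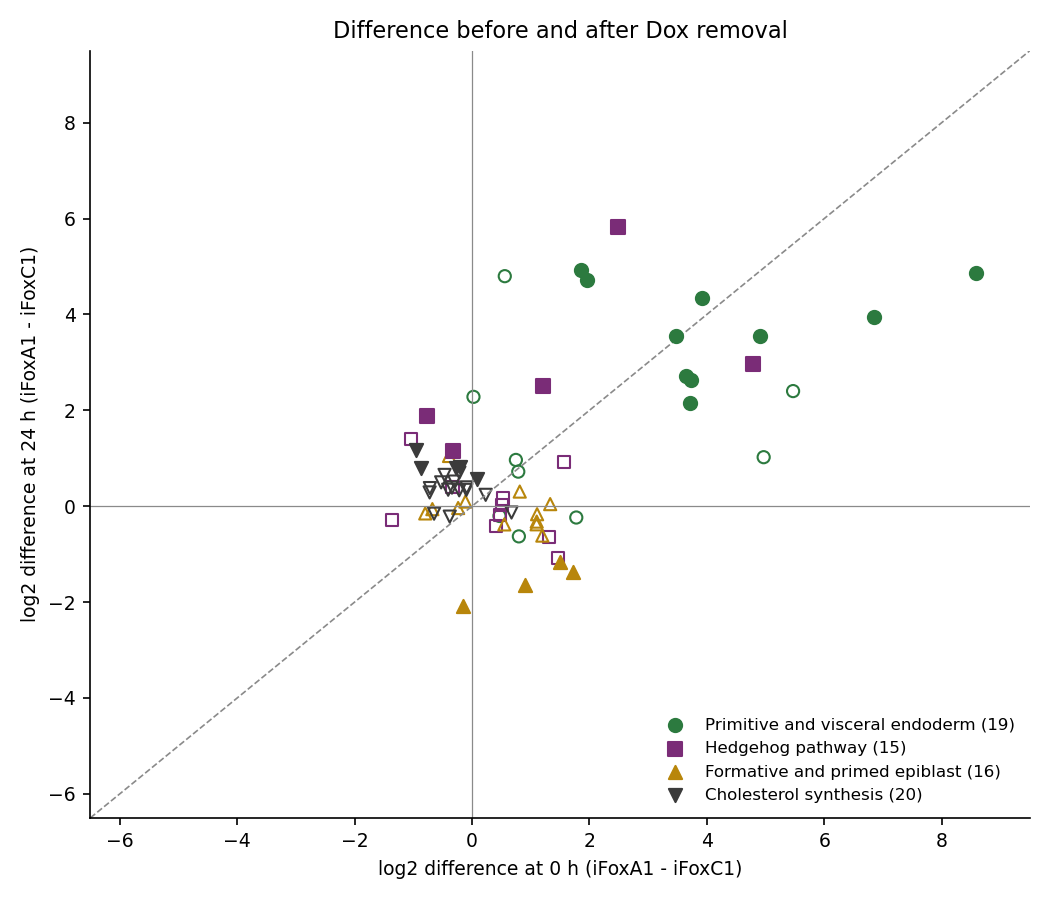
log2 difference between iFoxA1 and iFoxC1 at 0 h (x axis) and 24 h (y axis) for the tested members of 4 lists (number tested in the legend), filled where called at 24 h, with a dashed line where both differences are equal. On the x axis the called primitive and visceral endoderm genes lie from 1.86 (Apob) to 8.58 (Cubn), and the called cholesterol and formative epiblast genes from -0.95 (Insig1) to 1.72 (Fgf5).

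Across all genes, the 0 h and 24 h comparisons use separate libraries. Of the 305 genes called at 0 h, 86 were called in the same direction at 24 h (28.2% of those called at 0 h and 4.87% of those called at 24 h), and 35 in the opposite direction. The change with time differed between the lines for 574 genes (2.9% of those tested), of which 245 (1.24%) moved toward iFoxA1 and 329 (1.66%) toward iFoxC1.

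Hedgehog signalling begins with a secreted ligand that binds Patched and releases Smoothened, which activates Gli factors. Patched and Hhip are both targets and inhibitors of the pathway. Of 15 Hedgehog genes tested, 5 were higher in iFoxA1 (Shh, Ihh, Ptch1, Hhip and Cdon) and 0 in iFoxC1, while the list's median was 0.40. Among all genes, 4.49% were called higher in iFoxA1. The ligand Shh was at 58.6, 59.5 and 7.63 CPM in iFoxA1 and 0.694 and 0.767 CPM in iFoxC1 (log2 difference 5.83 ± 1.12, edgeR adjusted p = 0.014). At 0 h Shh had 1 count over the iFoxA1 libraries and 0 in iFoxC1. It averaged 0.0145 to 0.102 CPM in the reference lines, and the third iFoxA1 library was far below the other two. Ihh was at 1.04, 1.40 and 0.857 CPM against 0.0496 and 0.206 CPM. Unlike Shh, Ihh already differed in counts at 0 h, with 60 over the iFoxA1 libraries and 1 in iFoxC1. That is a ratio of 30.5 (exact counting interval 5.26 to 1223), without a call.

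Ptch1, the receptor, was at 189, 181 and 209 CPM in iFoxA1 and 50.8 and 53.6 CPM in iFoxC1 (log2 difference 1.89 ± 0.35, edgeR adjusted p = 0.0117), against 35.8 and 39.8, and 64.1 CPM at 0 h. The co-receptor Cdon was at 32.7, 32.7 and 34.1 CPM against 14.6 and 15.1 CPM (1.16 ± 0.12, edgeR adjusted p = 0.00105), and for both genes the change differed between the lines. Their 3 iFoxA1 values were close together, although Shh varied widely among the same libraries. Gli1, a further target, went the other way without a call, at 1.54, 1.24 and 3.64 CPM against 4.07 and 5.07 CPM (-1.08 ± 0.40, edgeR adjusted p = 0.135). Smo was not called either. Between 1 and 7 members were higher in iFoxA1 in the alternative analyses, with 1 when either iFoxC1 library was left out.

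In the BMP pathway, whose ligands are held in check by extracellular antagonists and intracellular inhibitory Smads, ligands and an antagonist were higher in iFoxA1. Of 16 tested, 4 were higher in iFoxA1 (Bmp2, Bmp7, Chrd and Id4) and 1 in iFoxC1 (Smad6), beside 4.49% and 4.42% of all genes. These counts were 1 and 0 without iFoxC1 replicate 1, 2 and 1 in the 5 libraries alone, and 6 and 4 without iFoxA1 replicate 3. Bmp2 had 405 counts against 3, a ratio of 101 (95% counting interval 34.2 to 490), with 8.78, 9.83 and 1.33 CPM in iFoxA1. Bmp7 was at 23.1, 26.8 and 11.0 CPM against 2.08 and 3.69 CPM (log2 difference 2.80 ± 0.42, edgeR adjusted p = 0.00471). Chrd, the antagonist chordin, was at 14.8, 17.2 and 8.69 CPM against 1.34 and 1.12 CPM (3.46 ± 0.34, edgeR adjusted p = 0.000764). The third iFoxA1 library was lowest for these 3 genes but still above iFoxC1. Smad6, an inhibitory Smad, was at 15.1 and 15.7 CPM in iFoxC1 against 5.26, 4.67 and 6.03 CPM in iFoxA1. Bmp4 was at 29.8 and 36.0 CPM in iFoxC1 and 6.10, 6.34 and 20.1 CPM in iFoxA1, which did not pass the test (edgeR adjusted p = 0.102). Id1, a direct target of BMP signalling, was at 39.6, 48.1 and 23.9 CPM against 45.7 and 44.9 CPM, with overlapping lines (edgeR adjusted p = 0.658).

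The Wnt list held 1 called gene higher in iFoxA1 and 3 higher in iFoxC1, and the Nodal and TGF-beta list 2 and 3. Of 22 Wnt genes, the ligand Wnt5a was higher in iFoxA1 (2.23, 1.61 and 2.48 against 0.397 and 0.413 CPM), and Wnt7b, Wnt3a and Wnt6 in iFoxC1. Wnt7b was at 8.28 and 9.55 CPM in iFoxC1 and at 0.694, 0.913 and 1.98 CPM in iFoxA1, and Wnt3a had 20 counts against 1 (ratio 26.8, 95% counting interval 4.29 to 1113). Both Wnt3a totals were small. Of 21 Nodal and TGF-beta genes, the Nodal inhibitor Lefty1 and the repressor Skil were higher in iFoxA1, and Tgfb1, Gdf3 and Tgfbi in iFoxC1. Lefty1 was at 61.9, 63.1 and 28.4 CPM against 8.82 and 8.88 CPM (log2 difference 2.53 ± 0.50, edgeR adjusted p = 0.0154), having been at 36.2 and 39.1, and 41.0 CPM at 0 h. Tgfb1 was at 11.2 and 14.4 CPM in iFoxC1 against 4.41, 5.27 and 3.84 CPM in iFoxA1.

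Of 16 Notch genes, the effector Hey1 was higher in iFoxA1, at 15.2, 12.8 and 6.33 against 1.64 and 1.59 CPM (log2 difference 2.82 ± 0.39, edgeR adjusted p = 0.00329). The glycosyltransferase gene Lfng and the receptor gene Notch1 were higher in iFoxC1, Lfng at 5.95 and 7.52 against 0.744, 1.29 and 2.69 CPM. Of 17 retinoic acid genes, only Dhrs3, a reductase of retinaldehyde, was called: 5.55, 5.53 and 12.7 CPM in iFoxA1 against 0.248 and 0.324 CPM in iFoxC1 (4.75 ± 0.64, edgeR adjusted p = 0.0031). In iFoxC1 it had been at 3.70 CPM at 0 h. Of 19 FGF genes, Fgf5 alone was called, and it was higher in iFoxC1.

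In each list of mesoderm and its derivatives 1 to 3 genes were called, of 8 to 20 tested, beside 8.91% of all genes. The calls went both ways in the lateral, endothelial and neural crest lists. In the streak, paraxial and mesenchymal lists they were all higher in iFoxC1. Of 14 primitive streak genes, 2 were called higher in iFoxC1 (Evx1 and Wnt3a) and 0 in iFoxA1. The list's summed level was nevertheless higher in iFoxA1, at 114, 116 and 91.7 CPM against 61.8 and 76.0 CPM. Lhx1, uncalled but far higher in iFoxA1 as given above, is a member. Evx1 reached 0.744 and 1.59 CPM. The defining streak gene T was at 0.297 and 0.324 CPM in iFoxC1 and 0.496, 0.215 and 0.384 CPM in iFoxA1, and Mixl1 at 0.644 and 0.885 against 1.19, 1.02 and 0.177 CPM. Both genes overlapped between the lines. Of 10 paraxial mesoderm genes tested, Lfng was called, higher in iFoxC1, and 7 further listed genes, among them Mesp1, Msgn1 and Uncx, fell under the filter on low counts. Foxc2, which acts together with Foxc1 in paraxial mesoderm, had at most 6 counts in any library.

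Of 8 lateral and cardiac genes, Gata4 and Isl1 were higher in iFoxA1 and the cardiac factor Tbx20 in iFoxC1, at 5.16 and 7.25 against 1.04, 0.806 and 1.27 CPM (log2 difference -2.57 ± 0.54, edgeR adjusted p = 0.0211). Hand1, a factor of lateral mesoderm and trophoblast, was at 34.8 and 41.8 CPM in iFoxC1 and 2.08, 1.67 and 14.3 CPM in iFoxA1, just short of a call (edgeR adjusted p = 0.0581). Of 16 endothelial genes, Cldn5 and Tal1 were higher in iFoxC1 and the receptor gene Flt4 in iFoxA1. Cldn5, the main claudin of blood vessels, was at 3.87 and 3.10 CPM against 0.347, 0.806 and 0.296 CPM. In the reference lines it averaged 2.72 to 5.80 CPM, the level of iFoxC1. Of 15 neural crest genes, Tfap2a and Col2a1 were higher in iFoxC1 and Sox9 in iFoxA1, and of 20 mesenchymal genes, Zeb2 and Col5a2 were higher in iFoxC1. Zeb2, a repressor of E-cadherin, stood at 2.03 and 1.92 CPM against 0.546, 0.537 and 0.414 CPM, while E-cadherin itself (Cdh1) was at 308 and 365 against 410, 407 and 557 CPM (edgeR adjusted p = 0.19).

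**Figure D4:**
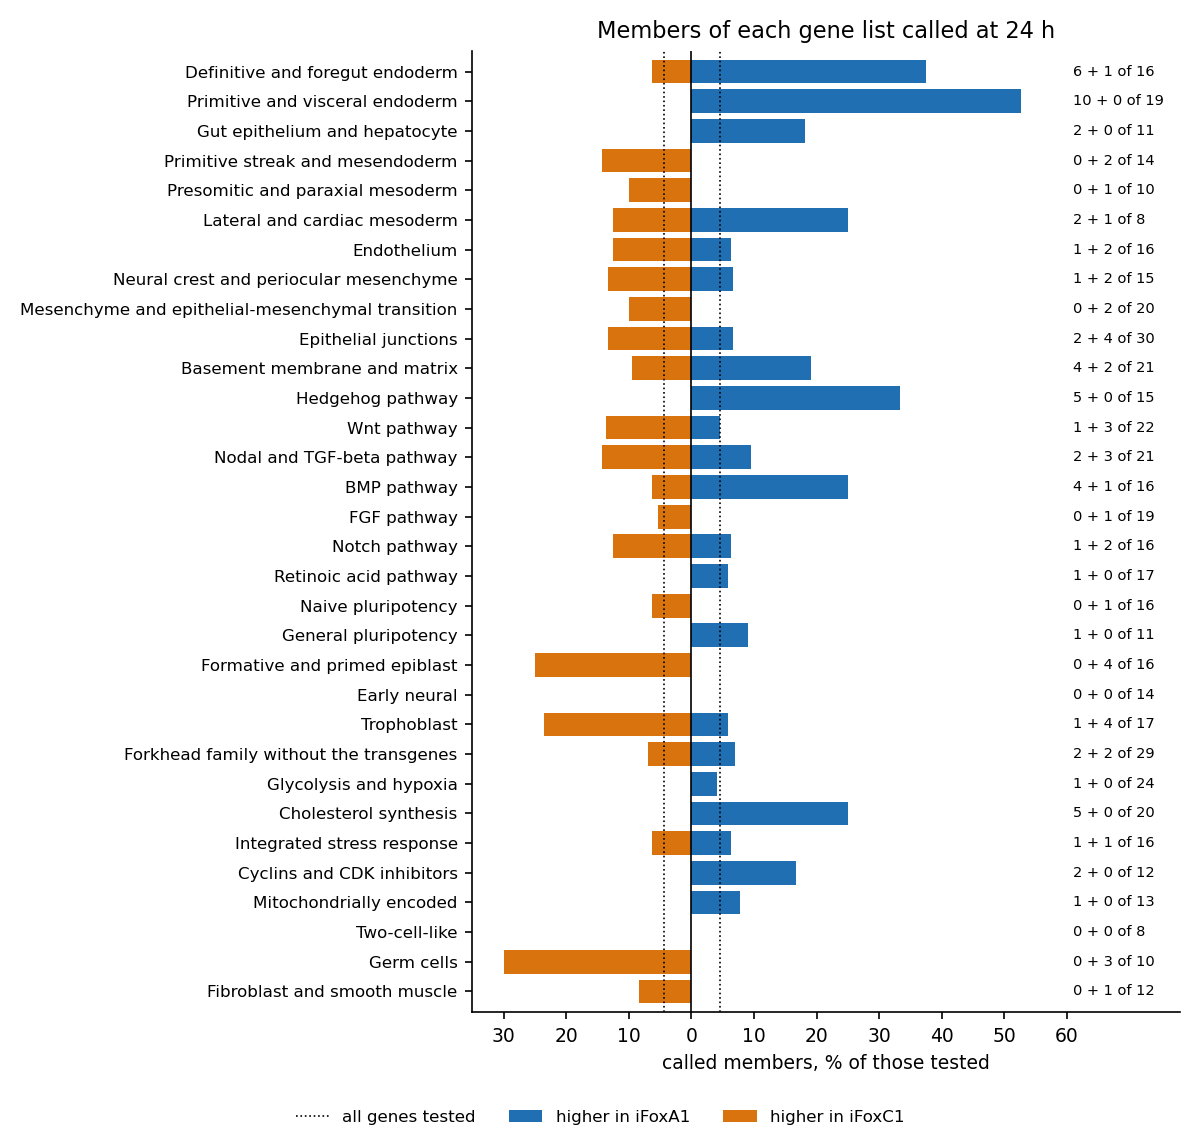
Share of tested members called at 24 h in each of 32 lists, to the right where higher in iFoxA1 (blue) and to the left where higher in iFoxC1 (orange), with counts at the right edge and dotted lines at the 4.49% and 4.42% of all tested genes. The endoderm and Hedgehog lists lean to iFoxA1, and the formative epiblast, germ cell and trophoblast lists to iFoxC1.

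Epiblast, trophoblast and germ cell lists held more called genes on the iFoxC1 side, where 4.42% of all genes were called. Formative and primed genes mark the epiblast on its way out of naive pluripotency. Of 16 tested, 4 were higher in iFoxC1 (Pou3f1, Sall2, Dnmt3b and Fgf5) and 0 in iFoxA1, with a median of -0.24. Pou3f1, a POU-domain factor, was at 30.9 and 31.3 CPM in iFoxC1 against 9.03, 9.94 and 10.9 CPM in iFoxA1 (log2 difference -1.64 ± 0.11, edgeR adjusted p = 0.000147). The de novo DNA methyltransferase gene Dnmt3b was at 681 and 739 against 289, 282 and 375 CPM (-1.17 ± 0.18, edgeR adjusted p = 0.00568). At 0 h Dnmt3b ran the other way, with 260 and 260 CPM in iFoxA1 and 91.8 CPM in iFoxC1 (edgeR adjusted p = 0.0313). Fgf5, the marker of primed epiblast, was at 8.87 and 7.84 against 3.27, 3.39 and 3.04 CPM. Both lines were called lower than the mean of the reference lines for Pou3f1 and Fgf5, which averaged 52.3 to 159 CPM and 16.1 to 29.0 CPM there. Those comparisons called 14.6% of all genes for iFoxA1 (8.53% higher and 6.03% lower) and 4.1% for iFoxC1 (2.59% higher and 1.51% lower). Of the formative and primed list they called 7 lower and 0 higher in iFoxA1, and 2 lower and 0 higher in iFoxC1. Otx2 did not separate the lines, at 90.4 and 88.7 against 41.0, 37.3 and 163 CPM.

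Of 17 trophoblast genes, 4 were higher in iFoxC1 (Gata3, Gcm1, Tfap2a and Tfap2c) and 1, Krt18, in iFoxA1. Gata3, a factor of early trophectoderm, was at 6.69 and 9.11 CPM in iFoxC1 against 1.14, 0.645 and 1.09 CPM in iFoxA1 (log2 difference -3.03 ± 0.46, edgeR adjusted p = 0.00515). Tfap2c was at 41.3 and 52.0 against 2.98, 2.79 and 18.0 CPM, and iFoxA1 replicate 3 lay well above its sister libraries. Cdx2, the defining trophectoderm factor, was not called, at 4.61 and 4.69 against 5.90, 5.53 and 1.45 CPM (edgeR adjusted p = 0.965), and the placental hormone gene Prl3d1 had 0 counts in every library. The list's median log2 difference was -0.18. Its summed level was 245, 246 and 201 CPM in iFoxA1 against 197 and 231 CPM in iFoxC1, with overlapping lines. None of the list was called without iFoxC1 replicate 2, where the median was -0.52. Of 10 germ cell genes, Dppa3, Nanos3 and Tfap2c were higher in iFoxC1. Dppa3, a maternal factor shared with naive pluripotency, was at 27.2 and 27.0 against 3.47, 4.19 and 7.27 CPM, and had differed at 0 h too, with 31.7 against 3.21 and 4.07 CPM (edgeR adjusted p = 0.0108). Nanos3 was at 2.08 and 2.45 against 0.397, 0.591 and 0.325 CPM, without a call at 0 h (difference between the changes -3.43, edgeR adjusted p = 0.0203).

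The naive pluripotency list moved with the third iFoxA1 library. Of 16 tested, Dppa3 alone was called, and the median log2 difference was 0.56 with that library and -0.25 without it. Nanog was at 51.2, 50.0 and 297 CPM in iFoxA1 and 284 and 227 CPM in iFoxC1, and Esrrb at 171, 172 and 726 against 239 and 278 CPM. In both, iFoxA1 replicate 3 lay above iFoxC1 and the other two below. The 2-cell-like list had summed levels of 6.9, 8.2 and 44.3 CPM in iFoxA1 against 25.8 and 36.2 CPM in iFoxC1: 0 of 8 genes were called, and 6 were called higher in iFoxC1 without replicate 3. Copies of several of these genes share reads. Among general pluripotency genes, the microRNA-processing regulator Lin28b was higher in iFoxA1 (19.7, 17.8 and 13.4 against 6.00 and 3.80 CPM), as it had been at 0 h. It was the 1 call among 11 genes of that list, and with library set as a term 5 further genes were called, all higher in iFoxC1. None of 14 early neural genes was called.

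Epithelial junction genes were called in both directions, 2 of 30 higher in iFoxA1 and 4 in iFoxC1. Grhl2, a master regulator of epithelial genes, was at 53.6 and 57.3 CPM in iFoxC1 and 25.4, 24.7 and 27.0 CPM in iFoxA1 (log2 difference -1.11 ± 0.14, edgeR adjusted p = 0.0024), after the reverse order at 0 h (8.01 against 20.5 and 17.9 CPM). The junction protein genes F11r and Cldn3 were also higher in iFoxC1. Krt18 was at 92.1, 90.4 and 52.2 CPM in iFoxA1 against 21.2 and 22.2 CPM, and the splicing factor gene Esrp1 at 102, 100 and 75.3 against 49.9 and 52.2 CPM. Among 21 basement membrane and matrix genes, 4 were higher in iFoxA1 (Lama1, Col4a1, Col4a2 and the linker gene Nid1) and 2 in iFoxC1, among them Agrn, which encodes the proteoglycan agrin.

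Of 20 cholesterol synthesis genes tested, 5 were called, all higher in iFoxA1 (among them Insig1, Stard4 and Fdps), and the list's median log2 difference was 0.39. Among all genes, 4.49% were called higher in iFoxA1 at 24 h. Insig1, a sterol-dependent inhibitor of the pathway, was at 122, 121 and 138 CPM in iFoxA1 and 60.7 and 51.4 CPM in iFoxC1 (log2 difference 1.18 ± 0.17, edgeR adjusted p = 0.00456). At 0 h Insig1 had been at 109 and 119 CPM in iFoxA1 and 220 CPM in iFoxC1, and it had fallen in iFoxC1 (edgeR adjusted p = 0.00133) without a called change in iFoxA1 (edgeR adjusted p = 0.656). From 0 h to 24 h, 9 of the 20 fell in iFoxC1, where 3.47% of all genes fell, with a median log2 change of -0.83 over the list. The list's median change in iFoxA1 was -0.004. The lone iFoxC1 library at 0 h had a summed level of 2725 CPM for this list, against 2094 to 2242 CPM in the other libraries at 0 h. Against the reference lines at 24 h, the list's median was 0.04 in iFoxA1 and -0.41 in iFoxC1. No cholesterol gene was called at 0 h by edgeR. The count was 8 without iFoxA1 replicate 3 and 1 without iFoxC1 replicate 2.

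Among 29 other forkhead genes tested, Foxq1 and Foxa2 were higher in iFoxA1, and Foxm1 and Foxr1 in iFoxC1. Foxq1 was at 5.55, 6.56 and 2.57 against 0.198 and 0.236 CPM (log2 difference 4.45 ± 0.59, edgeR adjusted p = 0.00281), and it too had differed at 0 h, at 9.90 and 8.95 against 0.142 CPM. Foxm1, a cell cycle factor, was at 127 and 171 CPM in iFoxC1 against 70.9, 72.4 and 92.1 CPM in iFoxA1. In the cyclin and CDK inhibitor list, the inhibitor genes Cdkn1b (31.6, 30.4 and 74.0 against 11.2 and 7.96 CPM) and Cdkn1c were higher in iFoxA1, 2 of 12. Of 24 glycolysis genes, Hk2 alone was called, higher in iFoxA1, and it was not called without replicate 3. In the stress response list, Vldlr was higher in iFoxA1 and the amino acid transporter gene Slc7a5 in iFoxC1, at 248 and 316 against 122, 122 and 132 CPM. Of 13 mitochondrially encoded genes, mt-Atp6 was higher in iFoxA1. Mitochondrial transcripts took 2.76, 2.44 and 2.63% of counts in iFoxA1 and 2.12 and 1.92% in iFoxC1. Fibroblast and smooth muscle genes, markers of other cells a culture could hold, summed to 34.2 to 37.1 CPM in iFoxA1 and 29.9 and 32.6 CPM in iFoxC1, with 1 of 12 called: Dcn, with 17 counts in iFoxC1 and 1 in iFoxA1. Their part in the results was not tested.

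A small set of genes rose in one line and fell in the other from 0 h to 24 h, each change called within its line. There were 52 such genes, 26 in each direction, and 39 of them were also called at 24 h. Changes within a line were called for 10.8% of all genes in iFoxA1 (6.62% up, 4.14% down) and 9.7% in iFoxC1 (6.23% up, 3.47% down). Grk3 rose from 6.17 and 5.13 CPM to 53.9, 53.4 and 24.1 CPM in iFoxA1 and fell from 5.36 CPM to 1.44 and 1.09 CPM in iFoxC1. Cap2, an actin regulator, went from 1.53 and 1.50 to 7.74, 5.64 and 5.73 CPM and from 3.22 to 0.248 and 0.354 CPM. Ank3, the membrane adaptor ankyrin-G, went from 10.3 and 9.87 to 22.0, 22.8 and 32.3 CPM and from 14.5 to 4.16 and 4.39 CPM. None of the 3 was called at 0 h, and all 3 were called at 24 h. Dpysl3, the fatty acid ligase gene Acsl3, the flippase gene Atp11a, the Golgi protein gene Golm1 and the kinase gene Sgk3 moved the same way, with smaller differences between the lines' changes. Each change in iFoxC1 starts from its 1 library at 0 h, which stood apart in some lists as described above.

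In the reverse direction, the adhesion molecule gene Mcam fell from 63.8 and 59.7 to 27.2, 24.8 and 28.6 CPM in iFoxA1 and rose from 61.2 to 146 and 168 CPM in iFoxC1 (log2 difference at 24 h -2.54 ± 0.18, edgeR adjusted p = 0.000169). The lines' values at 0 h overlapped. Rasgrp2, an activator of Rap, fell from 55.4 and 52.8 to 14.3, 15.2 and 17.2 CPM and rose from 21.9 to 45.4 and 45.9 CPM. Ptgs1, the prostaglandin synthase COX-1, fell from 5.02 and 4.74 to 0.843, 0.591 and 1.68 CPM and rose from 0.616 to 4.31 and 5.78 CPM. For Rasgrp2 the order of the lines was called at 0 h (edgeR adjusted p = 0.0107) and again, reversed, at 24 h. Crocc2, Dusp27 and Sgk3 also changed order with both calls, while Serpinb9b, Rbm43 and Zfp593 had no call at 0 h.

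**Figure D5:**
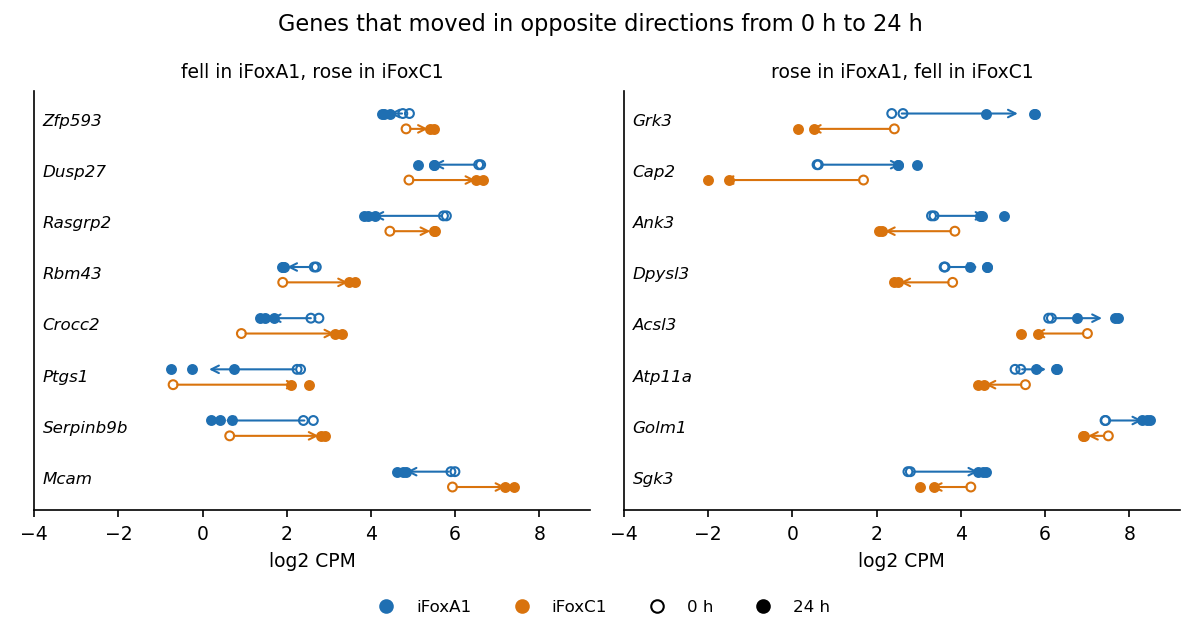
log2 CPM of 16 genes that fell in iFoxA1 and rose in iFoxC1 (left) or the reverse (right), with open points for libraries at 0 h, filled points at 24 h and arrows from the mean at 0 h to the mean at 24 h. Arrows of the same gene point in opposite directions, and for Mcam, Zfp593 and Grk3 they start from nearly the same level.

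Promoter sequences were read for the genes above to show whether the letters that forkhead proteins favour occur near their starts. The search used TGTTTAC, then TGTTTGC, and last TATTTAC, none of which holds another, on both strands of RefSeq promoters of GRCm38.p6 that run from 250 bases before to 50 after a start. At least 1 of the 3 was in 11.2% of all 32851 promoters and in 8.19% of those of the tested genes. For genes higher in iFoxA1 it was 11.3% (100 of 884 promoters), and for genes higher in iFoxC1 6.86% (57 of 831). These shares are a description and were not tested. Of 121 genes called as list members or named by size or direction, 79 had a promoter in the table and 9 had a match. The 6 below, from 3 genes higher in each line, are printed 5′ to 3′ on the gene's strand, with the match in capitals. The Timp4 promoter held 2 matches.
Timp4, chr6:115252156-115252455, minus strand: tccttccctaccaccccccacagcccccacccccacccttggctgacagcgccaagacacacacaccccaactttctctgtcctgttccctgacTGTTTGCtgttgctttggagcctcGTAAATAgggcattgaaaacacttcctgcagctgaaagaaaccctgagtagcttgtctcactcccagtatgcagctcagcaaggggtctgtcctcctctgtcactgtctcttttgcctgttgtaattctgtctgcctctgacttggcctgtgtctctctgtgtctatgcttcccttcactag
Apob, chr12:7977427-7977726, plus strand: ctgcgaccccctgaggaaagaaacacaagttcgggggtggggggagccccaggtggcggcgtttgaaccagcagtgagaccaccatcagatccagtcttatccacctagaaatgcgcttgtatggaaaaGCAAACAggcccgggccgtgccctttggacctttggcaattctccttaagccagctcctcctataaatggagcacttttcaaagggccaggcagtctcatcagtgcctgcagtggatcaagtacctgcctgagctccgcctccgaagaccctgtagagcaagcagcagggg
Dhrs3, chr4:144892887-144893186, plus strand: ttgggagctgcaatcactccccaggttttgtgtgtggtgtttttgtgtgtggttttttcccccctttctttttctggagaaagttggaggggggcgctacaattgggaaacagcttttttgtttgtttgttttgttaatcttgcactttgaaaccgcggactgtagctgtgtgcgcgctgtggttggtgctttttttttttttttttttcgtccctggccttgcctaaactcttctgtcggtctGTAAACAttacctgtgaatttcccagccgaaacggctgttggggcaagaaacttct
Pramel7, chr2:87492369-87492668, minus strand: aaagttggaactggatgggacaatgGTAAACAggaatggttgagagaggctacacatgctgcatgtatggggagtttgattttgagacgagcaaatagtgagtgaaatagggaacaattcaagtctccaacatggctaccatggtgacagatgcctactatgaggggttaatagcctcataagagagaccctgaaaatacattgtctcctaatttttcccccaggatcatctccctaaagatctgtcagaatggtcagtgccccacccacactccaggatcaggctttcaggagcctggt
Scml2, chrX:161162500-161162799, plus strand: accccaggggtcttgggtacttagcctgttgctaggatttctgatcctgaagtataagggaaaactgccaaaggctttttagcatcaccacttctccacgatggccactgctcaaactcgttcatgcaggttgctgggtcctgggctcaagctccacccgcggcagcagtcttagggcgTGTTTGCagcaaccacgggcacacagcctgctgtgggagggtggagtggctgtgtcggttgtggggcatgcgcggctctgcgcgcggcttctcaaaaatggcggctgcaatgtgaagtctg
Smad6, chr9:64022010-64022309, minus strand: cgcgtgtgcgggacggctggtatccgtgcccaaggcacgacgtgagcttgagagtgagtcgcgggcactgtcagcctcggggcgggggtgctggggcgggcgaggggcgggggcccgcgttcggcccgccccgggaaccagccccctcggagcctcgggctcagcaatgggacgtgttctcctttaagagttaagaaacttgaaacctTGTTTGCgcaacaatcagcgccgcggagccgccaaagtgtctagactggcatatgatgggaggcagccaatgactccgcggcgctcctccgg
In Timp4, Apob and Dhrs3 the gene was higher in iFoxA1, and in Pramel7, Scml2 and Smad6 in iFoxC1, so matches occurred on both sides. Of the 15 genes with the largest differences toward iFoxA1, 10 had a promoter in the table and 2, Timp4 and Foxa1, a match, and toward iFoxC1 it was 2 of 13. Foxa1 is among the 15 as the gene that the transgene of the line encodes. A match does not show binding, and a window without one says nothing about the factor.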

How the data were processed

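The RNA-seq values are estimated counts and TPM per transcript, which the authors made with Salmon 1.4.0 on mm10 per the submitters' processing notes. These notes also name DESeq2 1.30.1. The deposited estimated counts of 137271 transcripts were summed to genes through GENCODE M21 (137225 matched) and rounded, and the deposited TPM were summed likewise and used only to describe levels. Library totals were 17.7 to 37.2 M counts.

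All 17 libraries entered a model with 10 groups (7 residual degrees of freedom) in edgeR 4.0.16 under R 4.3.3, with TMM scaling, filterByExpr and the quasi-likelihood test. Lone libraries at 0 h were thereby assumed to vary like the other groups. A gene was called at a Benjamini-Hochberg adjusted p under 0.05 over the 19819 genes tested. SE is the log2 difference divided by the square root of F. Positive differences mean higher in iFoxA1. A ratio resting on 3 counts or fewer is given with its exact 95% counting interval.

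Genes were named by rule: the 15 largest called differences in each direction among coding genes averaging 5 CPM or more in the line where they were higher, with no overlap between the lines and 1 sign in both library sets, up to 8 genes in each direction whose lines moved oppositely, and up to 4 called members per direction of each of 32 lists. Further called members of longer lists, and uncalled members, were named after their values were seen. The members and lists were chosen with earlier results of these data known. Alternatives were DESeq2 1.42.0, other scaling, no filter, a library-set term, a replicate block and leaving out libraries.

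The test was tested on simulated data with 19819 genes for iFoxA1 against iFoxC1 at 24 h. It recovered 14.9% of 2-fold, 77.6% of 4-fold and 92.4% of 8-fold changes, with 8 false among 131 calls. Only 67, 67 and 66 genes were changed by these folds, and the libraries were drawn without scatter shared within a library set. In the data 1765 genes were called, 691 of them at less than 2-fold, so these shares do not carry over to the data. Some members of the lists are counted but not reported here by name.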

Additional observations from a re-analysis of the deposited data

Results flagged for a closer look

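Results stand here because the change from 0 h to 24 h differed between the lines by a test of the difference itself in edgeR. That held for 574 genes. Values are the log2 change in iFoxA1 minus that in iFoxC1, and all rest on 1 iFoxC1 library at 0 h.

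Among the genes with the largest differences at 24 h, the change favoured iFoxA1 for the transgene-encoded Foxa1 (7.13). It also did for Calca (6.55), Dkk3 (5.89), Emp2 (5.16) and Grk3 (5.04). Rbm24 (7.58) and Tacr1 (8.42) had few counts in iFoxC1, so their fitted values are imprecise. The change favoured iFoxC1 for Gcm1 (-6.03), Sfn (-3.78) and Aox3 (-2.71).

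Among genes that rose in one line and fell in the other, those that rose in iFoxA1 were Cap2 (5.45), Ank3 (3.11), Sgk3 (2.77), Acsl3 (2.69), Dpysl3 (2.23), Atp11a (1.81) and Golm1 (1.56). Those that rose in iFoxC1 were Ptgs1 (-5.23), Serpinb9b (-4.28), Crocc2 (-3.45), Dusp27 (-2.88), Rasgrp2 (-2.86), Mcam (-2.56), Rbm43 (-2.41) and Zfp593 (-1.11).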

How the results depend on the processing

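None of the 121 called genes named at 24 h reversed its direction in the 16 alternatives, while genes named without a call were not followed. Counts of called genes moved widely. The values below give, in order, the comparison of the lines at 24 h (1765), at 0 h (305), the difference between the changes (574), iFoxA1 and iFoxC1 against the reference lines (2886 and 813), and the genes with opposite changes (52). With library set as a term they were 3413, 1324, 1862, 4460, 1693 and 161. In the first library set alone, with 2 residual degrees of freedom, they were 7938, 8721, 7198, 9523, 4990 and 1424. Without the filter on low counts, the 24 h, 0 h, change and opposite counts were 1154, 152, 266 and 18. By the DESeq2 Wald test they were 2605, 1027, 1466 and 111, and 1342 for iFoxC1 against the reference lines. Using only the 5 libraries compared gave 755. DESeq2 size factors kept every count within 1.5 times. Leaving out 1 library gave 276 to 2944, 43 to 972, 62 to 1515, 1582 to 4016, 161 to 1286 and 9 to 146. The highest value at 24 h came without iFoxL2 replicate 2, left out after seeing the data because it had little Foxl2.

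A replicate block gave 3203, 1136, 1159, 4560, 1508 and 142. The replicate numbers did not pair the samples: deviations from the group means correlated at 0.69 between both replicates 1 and at -0.67 between both replicates 2, over 10852 genes, so the block was not used for the results. By library set they did deviate together, at 0.70 between iFoxA1 replicate 3 and iFoxC1 replicate 2 and at 0.69 and 0.67 between iFoxA1 replicates 1 and 2 and iFoxC1 replicate 1. With 2 iFoxC1 libraries each negative value mirrors a positive one. The iFoxA1 deviations also cancel out for each gene, so the positive values are not independent of each other. The main model had no term for library set, so this shared scatter entered its differences and SE. Of 121 named genes, 121 were still called with the set term, 118 with the block, 107 without the filter, 115 without iFoxA1 replicate 3, 65 and 47 without iFoxC1 replicate 1 or 2, and 78 of 119 in the 5 libraries alone. In the simulation, 2-fold changes were mostly missed at this replication, but far fewer genes were changed there than were called in the data.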
